A study of Caenorhabditis elegans with 15 samples.

Results

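The mitochondrial ribosomal protein genes are taken here as every gene of the deposited count table whose symbol starts with mrpl- (large subunit) or mrps- (small subunit). This rule found 66 of the 14831 genes in the table, by symbol 39 of the large and 27 of the small subunit. All 66 held enough reads to be tested, among 8954 genes tested in all. The reference annotation gives 65 of them a symbol of this kind, which was not compared with the listed symbol gene by gene. It names the gene listed as mrpl-14 by its sequence name, F45E12.5. A further 4 genes that carry such symbols in the annotation are listed in the table under sequence names and stay outside the rule. Among these is T14B4.2, which the annotation names mrps-18.C, while the member listed as mrps-18C is C26E6.6. Symbols and subunits are given here as listed in the table.

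Mitochondria keep a small genome of their own, and its protein-coding genes, mostly for subunits of the respiratory chain, are translated by ribosomes inside the organelle. All protein components of these ribosomes are encoded in the nucleus, made in the cytosol and imported, and they join ribosomal RNAs made from the mitochondrial genome. In Caenorhabditis elegans, knockdown of such genes, mrps-5 among them, is known to induce the mitochondrial unfolded protein response and to lengthen life. Many C. elegans mRNAs receive a spliced leader at the 5′ end by trans-splicing. The SL1 leader is joined mainly to RNAs of single genes and first genes of operons, and the SL2 leader mainly to downstream genes of operons, which are transcribed together and then separated.

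The study expressed a leader RNA with a sequence tag and a base change from a tissue promoter, pulled down RNA carrying the tag and sequenced its 5′ ends. The strain PU2-3::tag:SL1(G16C) tagged multiple tissues of mixed-stage animals (2 libraries). The strain Pmyo-3::tag:SL1(G16C), with a body-wall muscle promoter, was sampled as L1 larvae (1 library), L2 larvae (1), dauer larvae (2), young adults (2) and adults of day 12 (2). The strain Prgef-1::tag:SL1(G16C), with a pan-neuronal promoter, was sampled as young adults (2) and on day 12 (2). A further strain, Pmyo-3::tag:SL2(T5A), gave 1 mixed-stage muscle library with the SL2 tag. All animals grew at 20 °C, with young adults counted as day 1 and day 12 animals kept on 400 µM fluorodeoxyuridine, so that age and this agent cannot be told apart. Dauer larvae came from liquid culture, were selected with SDS and rested overnight in salt solution, so that stage and culture cannot be told apart either. The design text speaks of biological replicates for most groups without naming separate cultures, so p-values measure only the spread between these libraries, which may be technical. Only RNA that received the tagged leader was measured, and a gene's count is the number of reads at its trans-splice acceptor sites.

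The libraries held 57104 to 9587967 gene reads, the fewest in neurons of day 12. The 10 body-wall muscle marker genes in the table summed to between 4484 and 27660 CPM (a gene’s reads scaled to a common library total) in the 8 SL1-tag muscle libraries and to at most 385 CPM elsewhere, other than 196.8 CPM from 1 marker in the SL2-tag library. The 14 neuronal markers summed to between 4747 and 5653 CPM in neurons, but also to between 635 and 3619 CPM in SL1-tag muscle, where snb-1, a synaptic vesicle protein gene, gave most of the reads in young adults and dauer larvae (3309 in young adult replicate 1, against 10 of the marker ric-4). The 11 germline markers summed to 5466 and 5413 CPM in multiple tissues and to at most 64.6 CPM in any muscle or neuron library. Every comparison with multiple tissues uses the same 2 libraries and also sets germline-containing against nearly germline-free libraries. The part of germline RNA in the results was not tested. These comparisons also set mixed-stage animals against animals of given stages, so tissue and stage cannot be told apart. On day 12 the same holds for fluorodeoxyuridine. Intestine markers (5 in the table) summed to 1186 CPM in L2 muscle, above the 672 and 682 CPM in multiple tissues, and to 0 in L1. They summed to 894 CPM in day 12 muscle replicate 1 and 17.8 CPM in replicate 2. Dauer replicate 2 had the most gene reads of all libraries but reads of only 4569 genes, against 7945 in dauer replicate 1.

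Of the 66 genes, 27 were marked as operon genes by the authors (by symbol, 16 of the large and 11 of the small subunit). This is 40.9% of them, against 13.5% of all genes in the table and 14.5% of its protein-coding genes. For mrps-33, a small-subunit protein without a bacterial counterpart, the gene upstream is F21D5.6, with 2700 SL2-tag reads of its own, and mrps-33 starts 113 bases after it. The gene mrpl-4 follows mrps-2 with a gap of 105 bases, so that a large-subunit and a small-subunit gene lie in tandem, and mrps-22 follows dap-3, which encodes a further small-subunit protein, also by 105 bases. Of the 39 genes without the mark, 15 are followed by a gene that carries it. In 13 of the 39 the next gene on the same strand, with or without the mark, starts within 500 bases. These 13 include mrps-24, whose next gene is not listed, and mrps-28, whose next gene is unmarked. Among the marked followers, dss-1 lies 96 bases after mrpl-45 and had 4418 SL2-tag reads. An unmarked member may thus be the first gene of an operon. The members lie on chromosomes I (14), II (12), III (21), IV (10) and V (9), and none lies on X. Chromosome III holds 0.975% of its listed genes as members and chromosome V 0.281%.

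The SL2 tag separated the members along the operon mark. In the SL2-tag muscle library, with 2520944 gene reads on only 992 genes, 26 of the 27 marked members had reads and none of the 39 unmarked members had any. For comparison, 45.3% of all 2009 marked genes and 0.64% of the 12822 unmarked genes had at least 1 read there. The 39 unmarked members all had reads in SL1-tag muscle, 83067 in sum, so a count of 0 with the SL2 tag, which allows up to 1.19 CPM per gene, came with SL1-tag reads of each. Members took 2.68% of the SL2-tag reads (exact 95% binomial interval 2.66 to 2.70%), and all marked genes took 97.7%. Such intervals and limits cover counting error only, because amplified reads were not collapsed to single molecules. The library has no replicate, and its description names SL1 while its title and strain name SL2.

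Among the 26 genes with SL2-tag reads the counts ran from 219 to 8836, with a median of 2213. The most, 8836 reads or 3505 CPM, fell on mrps-33, whose mean over the 8 SL1-tag muscle libraries was 274 CPM (IV, main acceptor site at 8740026, minus strand; positions match the WBcel235 assembly). Next came mrps-14, a protein of the small-subunit head in bacteria, with 6261 reads (2484 CPM against an SL1-tag mean of 112 CPM). The gene mrpl-41, for a large-subunit protein without a bacterial counterpart, had 6224 reads (2469 against 124 CPM). These 3 genes had the highest counts, and in each the SL2-tag level was over 10 times the SL1-tag mean.
Lower counts were found for mrpl-23, whose bacterial counterpart lies at the exit of the peptide tunnel, with 4975 reads (1973 against 104.1 CPM). For mrps-11, a protein of the platform that holds mRNA, there were 3683 reads (1461 against 197 CPM). For mrpl-10, the anchor of the stalk that engages translation factors, there were 3420 (1357 against 85.6 CPM). Reads are counted at 5′ ends and were not divided by gene length, so these numbers rank tagged reads, not RNA amounts.

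The ratio of SL2-tag CPM to mean SL1-tag muscle CPM ran from 0.779 to 29.7 over these 26 genes, with a median of 7.90. The lowest ratio belonged to C26E6.6, listed as mrps-18C, a symbol the annotation gives to another gene. It had 219 SL2-tag reads (86.9 CPM) against 112 CPM with the SL1 tag and lies 630 bases after eri-9. The highest belonged to mrpl-13, a large-subunit protein, with 3257 SL2-tag reads (1292 against 43.5 CPM). Each library is scaled to its own total and the SL2-tag total is spread over far fewer genes, so the ratio orders genes and does not give the share of an mRNA that carries SL2. The one marked member without an SL2-tag read was mrpl-46, a large-subunit protein. It starts 897 bases after ech-5, and its SL1-tag mean over muscle was 16.99 CPM, the lowest of the 27 marked members.

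**Figure D1:**
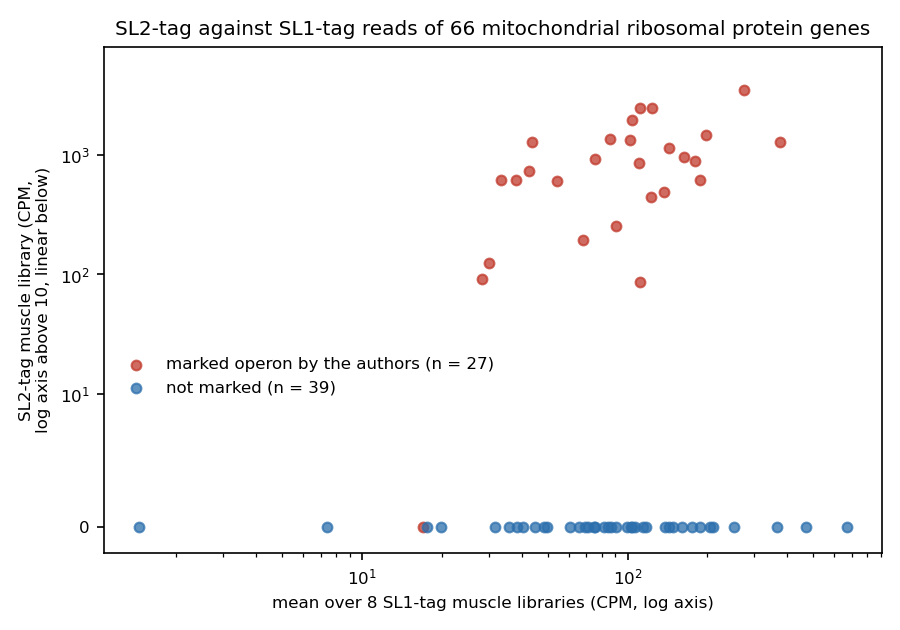
Each point is 1 of the 66 genes, with its mean CPM over 8 SL1-tag muscle libraries (log axis) against its CPM in the SL2-tag muscle library (log axis above 10, linear below). The 26 marked genes with SL2-tag reads lie between 86.9 and 3505 CPM, and the 39 unmarked genes and mrpl-46 lie at 0.

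The genes with SL2-tag reads lay close behind another gene. Operon annotation in general draws on such spacing and on SL2 leaders, and how the deposited mark was made is not given in the sources used here, so gaps and SL2-tag reads describe the marked class and are not independent of the mark. The gap from the end of the nearest same-strand upstream gene to the main acceptor site ran from 25 to 2646 bases, with a median of 108, and was under 500 bases in 23 of 26 genes. In the 39 unmarked genes it ran from 256 to 45587 bases, with a median of 8343, and was under 500 bases in 2. Acceptor sites lay at or next to the start codon in both. The distance from main site to start codon was 0 to 12 bases (median 0) in the 26 genes with SL2-tag reads, and the median was 2 bases in unmarked genes. Unmarked genes ranged from -38 bases in mrpl-47, where the main site lies inside the annotated coding sequence, to 35 bases in mrps-6 and mrps-16. Usually a single acceptor site held the reads. The 66 genes had 112 trans-splice sites in all, 28 had only 1, and in 59 the main site took at least 95% of the reads.

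The share of SL1-tag reads on marked members differed widely between the labelled groups. In multiple tissues 14.6% and 15.1% of the reads on members fell on the 27 marked genes. In young adult muscle it was 49.8% and 47.9%, and in dauer muscle 46.7% and 45.6%. The libraries of both muscle groups lay far above both multiple-tissue libraries and above every other library.
The single L1 library had 23.3% (exact 95% interval 22.3 to 24.3%) and the single L2 library 27.5% (26.8 to 28.2%). Day 12 muscle had 27.2% and 42.2%, with no overlap with young adults, although its replicates differed from each other by more than dauer did from young adults. Neurons had 22.4% and 18.01% as young adults and 23.3% and 30.9% on day 12, the last group on only 180 and 382 reads of members.
The same share over all genes was 11.6% and 11.5% in multiple tissues, 18.2% and 18.7% in young adult muscle, 20.1% and 17.2% in dauer muscle, 11.4% in L1, 11.8% in L2, 11.02% and 14.5% in day 12 muscle and between 7.83% and 8.70% in neurons. So marked genes as a whole also took more of the reads in young adult and dauer muscle, while in L1, L2 and day 12 muscle replicate 1 their share lay within 1 percentage point of that in multiple tissues. Members as a group took a similar share of all gene reads in multiple tissues (0.808% and 0.795%) and in muscle (0.556 to 0.997%), and 0.315 to 0.396% in neurons.

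**Figure D2:**
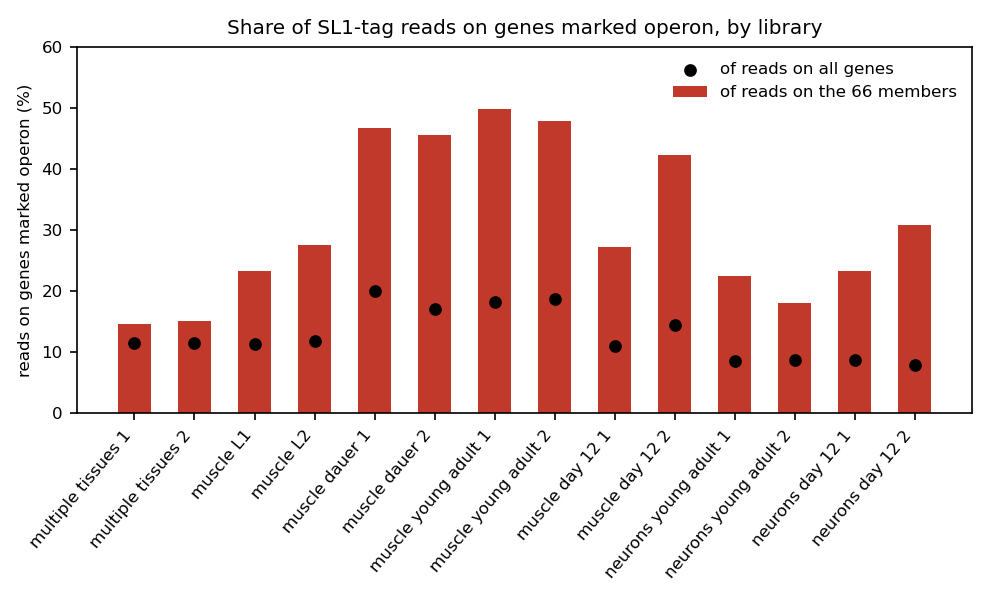
Bars give, for each SL1-tag library, the percentage of reads on the 66 genes that fell on the 27 genes marked operon, and black points give the same percentage over all genes of the table. The bars stand at 14.6 and 15.1% in multiple tissues and at 45.6% or more in the 4 young adult and dauer muscle libraries.

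In young adult muscle the marked and unmarked members lay on opposite sides of multiple tissues, while no single gene passed the test. Levels per library are given as CPM after scaling by edgeR's TMM method, and gene tests are edgeR's quasi-likelihood test with Benjamini-Hochberg adjustment over all 8954 genes at a threshold of 0.05. In bulk samples such as these, fewer cells of a type and less RNA per cell cannot be told apart. The SL1-tag level of a gene also depends on the share of its RNA that receives SL1 rather than SL2. That share was not tested. Where 1 library is left out below, the percentage of all genes called is not given, so those counts are not set against a background. Of the 66 genes 0 were called, with 5.12% of all genes called in this comparison. At an unadjusted p under 0.05 there were 9 of 66, against 1894 of all 8954 genes. DESeq2's Wald test called 13 of the 63 it tested, in a test that called 21.1% of all genes.
The 27 marked genes had a median log2 fold change of 1.89, with 25 above 0, and in 23 both young adult muscle libraries exceeded both multiple-tissue libraries. Over all marked genes tested the median was 0.33, and 43.2% lay above without overlap. The 39 unmarked genes had a median of -0.79, with 9 above 0, and in 29 both muscle libraries lay below both multiple-tissue libraries, against 41.7% of all unmarked genes.
DESeq2's 13 calls were 8 marked genes, all higher (14.2% of all marked genes were), and 5 unmarked genes, all lower (7.41% of all unmarked genes were). With dauer replicate 2 and both day 12 muscle libraries left out of the edgeR fit, an alternative chosen after seeing the data, 24 members were called in a fit that called 35.3% of all genes. These were 13 marked genes higher and 0 lower, where 18.3% of all marked genes were called higher, and 1 unmarked gene higher and 10 lower, where 20.9% of all unmarked genes were called lower.

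The gene mrps-2, for a protein of the small-subunit body that holds mRNA, had 94.8 and 90.8 CPM in multiple tissues and 672 and 792 CPM in young adult muscle. Both muscle libraries lay above both others, and the log2 fold change was 2.98 ± 0.83 (SE; edgeR adjusted p = 0.0794). It also had 488.5 and 384.5 CPM in dauer muscle and 171 and 600 CPM in day 12 muscle, all above multiple tissues, but 101.3 and 57.0 CPM in L1 and L2.
The unmarked gene mrpl-51, for a large-subunit protein without a bacterial counterpart, had 408 and 441 CPM in multiple tissues and 56.6 and 48.2 CPM in young adult muscle (log2 fold change -3.02 ± 0.83, edgeR adjusted p = 0.0689). No other library exceeded 228 CPM, so multiple tissues stood apart from all muscle and neuron libraries. The unmarked gene mrpl-34, homologous to a small bacterial large-subunit protein, had 527 and 524 CPM in multiple tissues and 144 and 89.7 CPM in young adult muscle. The groups did not overlap, and the log2 fold change was -2.17 ± 0.67 (edgeR adjusted p = 0.106).
The tandem pair mrps-2 and mrpl-4 lay on the same side. The downstream gene mrpl-4 had 37.9 and 26.3 CPM in multiple tissues and 244 and 148 CPM in young adult muscle.

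**Figure D3:**
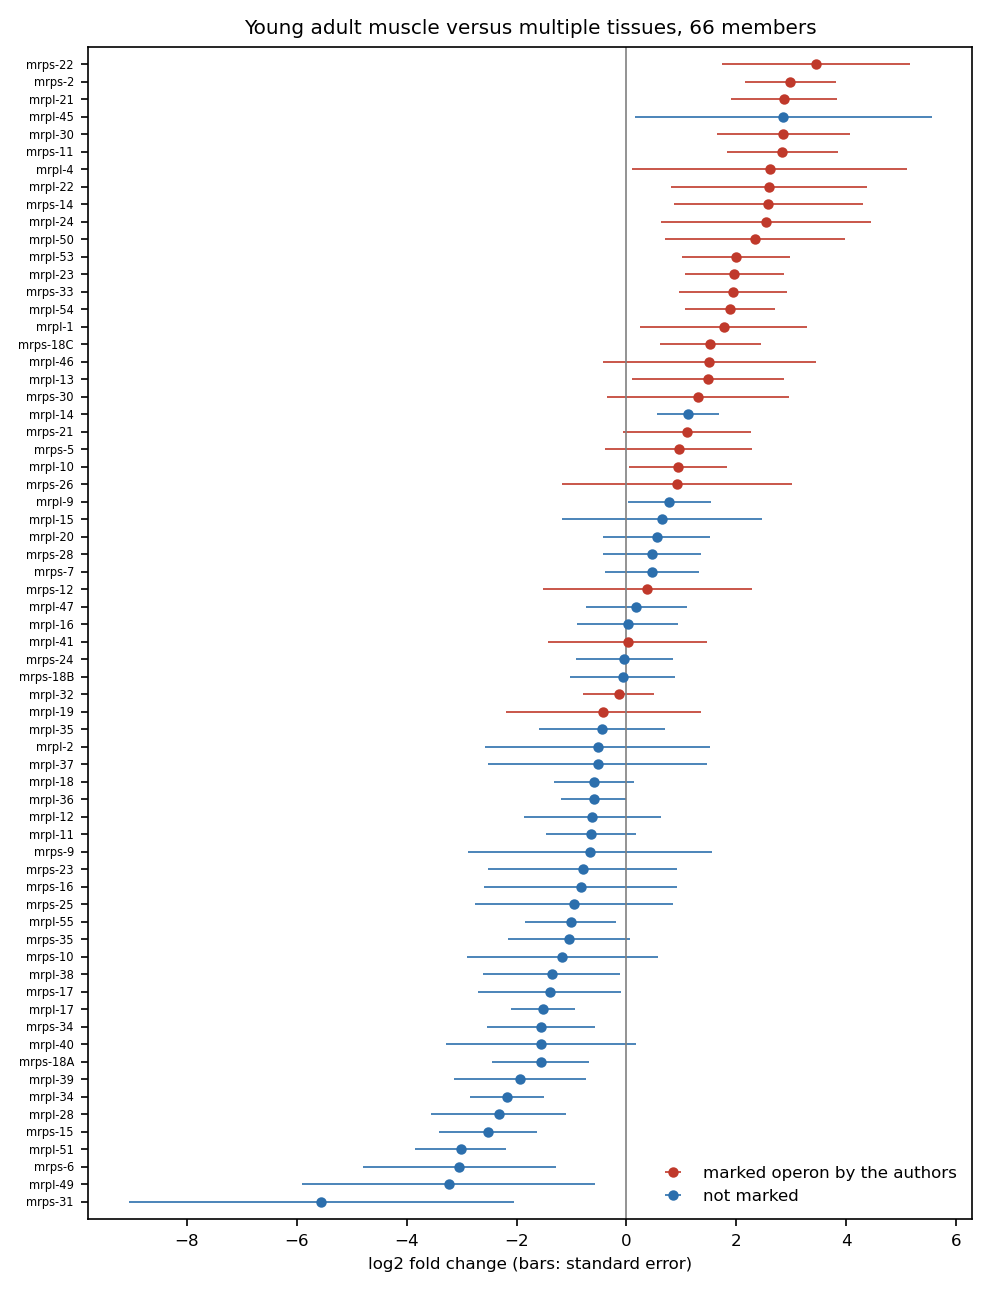
Log2 fold change (points) with its standard error (bars) of each of the 66 genes in young adult muscle versus multiple tissues, ordered by value. Of the 27 marked genes 25 lie above 0, and of the 39 unmarked genes 30 lie below 0, while 0 of the 66 passed the test.

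Dauer muscle showed a like division, again without a called gene. Of the 66 genes 0 were called against 7.45% of all genes, and 9 had an unadjusted p under 0.05, against 2108 of all 8954 genes. DESeq2's Wald test called 10, against 25.1% of all genes. These were 2 marked genes, both higher (14.5% of all marked genes), and 8 unmarked genes, all lower (7.92% of all unmarked genes). Marked members had a median log2 fold change of 1.17 against multiple tissues, with 22 of 27 above 0 and 19 above without overlap (32.6% of all marked genes). Unmarked members had a median of -1.86, with 2 of 39 above 0 and 33 below without overlap (37% of all unmarked genes). All genes had a median of 0.
The smallest p belonged to mrpl-34, with 88.0 and 94.0 CPM in dauer muscle (log2 fold change -2.53 ± 0.68, edgeR adjusted p = 0.0554). Both libraries lay far below the multiple-tissue libraries, as they did for mrpl-51, with 41.3 and 67.1 CPM (-2.96 ± 0.82, adjusted p = 0.0584). The gene mrpl-11, at the base of the stalk that binds translation factors, had 251 and 255 CPM in multiple tissues and 52.0 and 23.2 CPM in dauer muscle (-2.75 ± 0.87, adjusted p = 0.0921).
With dauer replicate 2 and both day 12 muscle libraries out of the fit, 16 members were called where 27.1% of all genes were, 4 marked genes higher (12.8% of marked genes) and 12 unmarked genes lower (12.2% of unmarked genes). Leaving out dauer replicate 1 alone gave 10 calls and leaving out dauer replicate 2 gave 0. In dauer replicate 2, 14 of the 66 genes had no read despite its depth, against 1 in replicate 1. The gene mrps-23, for example, had 122 and 0 CPM.

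Larval muscle was taken as the average of the log2 fold changes of the single L1 and L2 libraries. There 2 members were called lower and 0 higher, with 3.48% of all genes called lower and 3.53% higher. Both called genes had no read in the L2 library, the one with the highest intestine marker sum, whose part in the result was not tested. The gene mrps-7, whose bacterial counterpart organises the small-subunit head, had a mean of 117 CPM in multiple tissues (SD 19.3, n = 2), 195 CPM in L1 and 0 in L2. Its L1 level thus lay above and its L2 level below multiple tissues. The log2 fold change averaged over L1 and L2 was -4.97 ± 1.20 (edgeR adjusted p = 0.0347), and without L2 it was 0.66. The mean larval level was 97.4 CPM, so the averaged value rests on the fitted value of the L2 library without reads. The marked gene mrps-18C had 72.8 and 83.2 CPM in multiple tissues, 63.9 CPM in L1 and 0 in L2 (-5.20 ± 1.27, adjusted p = 0.0422), and without L2 the value was -0.36.
The third smallest p was that of mrpl-38, a large-subunit protein without a bacterial counterpart, with 98.5 and 105 CPM in multiple tissues, 0 in L1 and 12.2 CPM in L2 (-6.77 ± 1.86, adjusted p = 0.0561). Leaving out L2 or either multiple-tissue library left 0 calls. Over all genes the median in this comparison was -1.43, over marked members 0.28 (0.0646 to 0.365 without 1 library) and over unmarked members -0.36 (-0.512 to -0.184).

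On day 12 of adulthood 6 members were lower in muscle than in multiple tissues and 0 higher, with 4.94% of all genes called lower and 4.88% higher. DESeq2's Wald test called 11 lower and also 4 higher, the latter all marked, where it called 9.93% of all genes lower and 16.3% higher. The called genes were 4 unmarked genes, mrpl-51, mrpl-28, mrpl-34 and mrps-15, and 2 marked genes, mrpl-13 and mrps-5. The gene mrpl-51 had 32.7 and 23.1 CPM in day 12 muscle against 408 and 441 CPM (log2 fold change -3.93 ± 0.87, edgeR adjusted p = 0.0209). The gene mrpl-28, for a large-subunit protein with a bacterial counterpart, had 13.4 and 0 CPM against 507 and 561 CPM (-6.46 ± 1.52, adjusted p = 0.0272). Both genes were lower in each day 12 muscle library than in each multiple-tissue library.
For mrpl-34 there were 68.4 and 75.6 CPM, again far below multiple tissues (-2.87 ± 0.69, adjusted p = 0.0336). The gene mrps-15, whose bacterial counterpart binds the central domain of the small-subunit RNA, had 8.92 and 18.8 CPM against 158 and 148 CPM (-3.44 ± 0.93, adjusted p = 0.045). These 2 genes did not overlap between groups either.
The marked genes mrpl-13 and mrps-5, the latter a protein of the mRNA entry region, had no read in either day 12 muscle library. With 33.0 and 30.9 CPM in multiple tissues, mrpl-13 was at least 24.2-fold lower (edgeR adjusted p = 0.0419), counting 3 reads over the day 12 group as the floor. With 24.5 and 26.7 CPM, mrps-5 was at least 19.4-fold lower (adjusted p = 0.0456). In young adult and dauer muscle, by contrast, both were above multiple tissues in every library, mrpl-13 at 58.3 to 92.7 CPM and mrps-5 at 41.1 to 85.5 CPM.
The median over marked members was -0.04, with 13 of 27 above 0, and over unmarked members -1.80, with 4 of 39 above 0, where all genes had a median of -0.29. The marked median rested on single libraries and on the scaling. It was -2.54, with 4 of 27 above 0, without day 12 muscle replicate 2, 0.325, with 19 above 0, without replicate 1, and 0.578, with 17 above 0, under DESeq2's size factors. Day 12 replicate 1 lacked reads of 16 members and replicate 2 of 10, with 464359 and 1684401 gene reads. Without multiple tissues replicate 1 there was 1 call, without replicate 2 there were 0, and without day 12 muscle replicate 1 or 2 there were 4 or 5.

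Between day 12 and young adult muscle 0 of the 66 genes were called, with 1.55% of all genes called. At an unadjusted p under 0.05 there were 13, against 1724 of all 8954 genes. DESeq2's Wald test called 5, against 14.6% of all genes. In 41 of the 66 both day 12 libraries lay below both young adult libraries (32.3% of all genes), and in 1 both lay above (12.6%). Marked members had a median log2 fold change of -1.38, where all marked genes had -1.85, and unmarked members had -0.71, where all unmarked genes had 0. The marked median was -4.12 without day 12 replicate 2 and -0.88 without replicate 1. The unmarked median was -0.12, with 15 rather than 6 of 39 above 0, under DESeq2's size factors, and -0.26 when only these groups were fitted.
The smallest p-values belonged to mrpl-13, with 86.1 and 92.7 CPM in young adults and no read on day 12 (at least 67.7-fold lower, edgeR adjusted p = 0.0692), and to mrps-5, with 41.1 and 57.8 CPM and no read (at least 37.5-fold lower, adjusted p = 0.0801). Neither passed the threshold. The marked gene mrpl-21, a large-subunit protein, had 305 and 484 CPM in young adults and 38.6 and 66.2 CPM on day 12 (-2.90 ± 0.97, adjusted p = 0.159).
Leaving out day 12 replicate 1 gave 1 call and leaving out replicate 2 gave 3, with 0 without either young adult library.

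Dauer muscle and young adult muscle, which both stood above multiple tissues for marked members, did not differ past the threshold in any member. Of the 66 genes 0 were called, against 0.134% of all genes, and 2 had an unadjusted p under 0.05, against 691 of all 8954 genes. DESeq2's Wald test called 0, against 7.26% of all genes. The smallest p was that of mrpl-11, with 52.0 and 23.2 CPM in dauer and 132 and 192 CPM in young adult muscle (log2 fold change -2.11 ± 0.85, edgeR adjusted p = 0.558). The gene mrpl-9, for a large-subunit protein with a bacterial counterpart, had 75.3 and 41.7 CPM in dauer and 188 and 211 CPM in young adults (-1.77 ± 0.78, adjusted p = 0.63). Neither gene overlapped between the groups, and in 41 of the 66 both dauer libraries lay below both young adult libraries (18% of all genes) and in 4 above (19.2%).
The third, mrpl-45, whose mammalian counterpart sits at the tunnel exit near the inner membrane, was hardly read at all. It had 28 reads over all libraries, none of them in dauer muscle, and 1.29 and 10.8 CPM in young adult muscle (adjusted p = 0.647). Of its 19 reads in young adults, 18 came from replicate 2, so no fold is given. Of the fits that left out 1 library, only the one without dauer replicate 1 called members. For the dauer stage that fit rests on replicate 2 alone, and its share of all genes called is not given here.

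**Figure D4:**
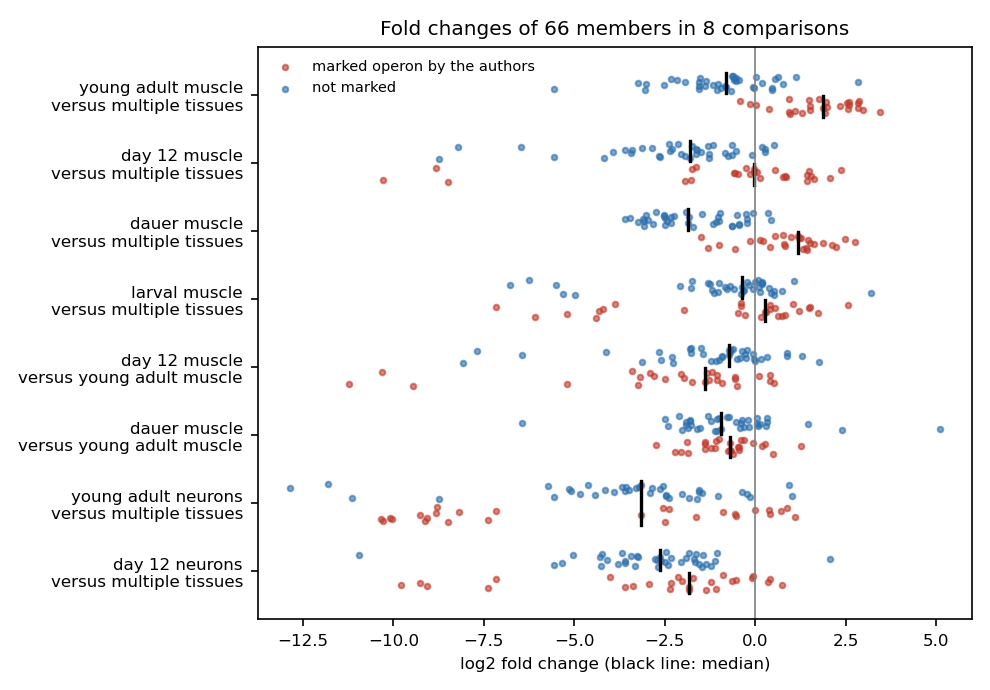
Each point is the fitted log2 fold change of 1 of the 66 genes in 1 of 8 comparisons, with genes marked operon and unmarked genes drawn apart and black lines at their medians. In young adult and dauer muscle the medians are 1.89 and 1.17 for marked genes against -0.79 and -1.86 for unmarked genes, while in neurons both medians lie below 0. Points beyond about -7 belong mostly to genes without reads in a group, whose fitted values depend on edgeR's prior count.

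In neurons the members called by edgeR were lower, whether marked or not. In young adult neurons 12 of the 66 were lower than in multiple tissues and 0 higher, with 9.21% of all genes called lower and 7.8% higher. Of these, 9 were unmarked and 3 marked. DESeq2's Wald test called 16 lower and 3 higher, where it called 13.9% of all genes lower and 22.3% higher. Genes without any read in the 2 neuron libraries (19 of the 66 genes) limit the fold that can be stated. With those genes at their bound, the median log2 fold change was -2.49 over the members and 0 over all genes. As fitted it was -3.15 and -2.05. Of all 8954 genes, 4258 had no read in 1 of the 2 groups. Such a gene was set to 0 where its bound showed no difference. This rule draws the all-gene median to 0, more so for little-read genes, so the medians at the bound cannot be compared.
The unmarked gene mrpl-34 had no read in either library, which made it at least 96.7-fold lower (edgeR adjusted p = 0.000528). Likewise mrpl-11 was at least 46.5-fold lower (adjusted p = 0.00288). The marked gene mrps-2 had no read in young adult neurons either, at least 17.1-fold lower than in multiple tissues (adjusted p = 0.00613), although it had 672 and 792 CPM in muscle of the same age.
No read was found for mrps-18C (at least 14.4-fold lower, adjusted p = 0.00975). The same held for mrps-35, a small-subunit protein without a bacterial counterpart, with 156 and 163 CPM in multiple tissues (at least 29.4-fold lower, adjusted p = 0.0125). The gene mrpl-16, homologous to a bacterial protein near the peptidyl transferase centre, had 1 read, or 3.63 and 0 CPM, against 98.5 and 100.0 CPM. The ratio of reads was 54.9 (exact 95% counting interval 9.80 to 2173; adjusted p = 0.0151).
Other members were well read in neurons. The gene mrpl-14, at the interface between the subunits in bacteria, had 711 and 890 CPM in young adult neurons against 384 and 451 CPM in multiple tissues, and mrps-23 had 635 and 579 CPM against 284 and 319 CPM. Neuron and multiple-tissue libraries did not overlap for either gene, and neither was called (mrps-23 was chosen after its values were seen). Each neuron library left out alone gave 7 or 8 calls, as did each multiple-tissue library. With dauer replicate 2 and both day 12 muscle libraries out of the fit there were 45, all lower, where 33.8% of all genes were called lower.

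In day 12 neurons 6 members were lower than in multiple tissues and 0 higher, with 5.22% of all genes called lower and 6.9% higher. DESeq2's Wald test called 4 of 63 members lower (6.35%) and 0 higher, where it called 6.66% of all genes lower and 25% higher. The day 12 neuron libraries held 57104 and 112074 gene reads, so that 3 reads correspond to 52.5 and 26.8 CPM. This limits what can be seen for the less read members. The gene mrpl-17, whose bacterial counterpart lies near the tunnel exit, had 21.6 and 63.5 CPM against 872 and 794 CPM (log2 fold change -4.23 ± 0.69, edgeR adjusted p = 0.0036). The gene mrpl-36, for a small zinc-binding protein in bacteria, had 108 and 102 CPM against 649 and 644 CPM (-2.63 ± 0.66, adjusted p = 0.029). Both stood far below multiple tissues in each library, as did mrpl-34, with 32.4 and 63.5 CPM (-3.42 ± 0.73, adjusted p = 0.0175).
The gene mrpl-18, whose bacterial counterpart binds a small ribosomal RNA, had 3 reads, or 0 and 19.1 CPM, against 370 and 368 CPM (ratio of reads 30.7, exact 95% counting interval 10.5 to 149; adjusted p = 0.00835). The gene mrps-18A, whose human homologue sits in the large subunit despite its name, had 2 reads, or 21.6 and 0 CPM, against 340 and 396 CPM (ratio of reads 46.8, 12.9 to 387; adjusted p = 0.0175). No read was found for mrps-11, the only marked gene called (at least 5.18-fold lower, adjusted p = 0.0461).
All 6 genes were without overlap between the groups. Without multiple tissues replicate 1 or 2 there were 3 or 2 calls, and without neuron replicate 1 or 2 there were 3 or 4.

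Summed over all 15 libraries, which differ in depth and include the SL2-tag library, the most reads fell on mrps-33 (14627 reads, 8836 of them with the SL2 tag), mrpl-14 (14196), mrps-2 (11815, 3238 with the SL2 tag), mrpl-17 (10825) and mrpl-41 (9790, 6224 with the SL2 tag). In the SL1-tag libraries alone the order was mrpl-14, mrpl-17, mrpl-36 (9306) and mrps-2 (8577), with 5791 reads of mrps-33 and 3566 of mrpl-41. They followed different courses over the groups. The marked gene mrps-33 had 111 and 116 CPM in multiple tissues, 87.3 and 186 in L1 and L2, 356 and 216 in dauer, 396 and 476 in young adult and 205 and 411 CPM in day 12 muscle, but at most 82.6 CPM in neurons. Dauer and adult muscle thus stood above multiple tissues and neurons below.
The unmarked gene mrpl-14 ran from 286 to 1070 CPM over the 8 muscle libraries, with all but day 12 replicate 1 at 440 CPM or above. The unmarked gene mrpl-17 was highest in multiple tissues and larvae, with 790 and 645 CPM in L1 and L2, and had 180 to 361 CPM in dauer and adult muscle. For mrpl-41 the muscle libraries ranged from 0 in day 12 replicate 1 to 268 CPM in L1, on both sides of the 117 and 130 CPM in multiple tissues.
The fewest reads, 28, fell on mrpl-45. The gene with reads in the fewest libraries, 5, was mrps-31, with 31.2 and 30.1 CPM in L1 and L2 muscle, 3.06 and 3.43 CPM in multiple tissues and 4.86 CPM in dauer replicate 1. No member was without a read in all libraries.

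Other genes, listed for mitochondrial translation, were called lower in some of the same comparisons. The list holds translation factors and tRNA synthetases but also genes that are neither, dap-3 among them. Whether its synthetases, tars-1 among them, serve only mitochondria was not tested. Of 22 tested genes of this list, 0 were called in young adult muscle by edgeR (2 at an unadjusted p under 0.05). In any of the 8 comparisons 0 were higher. Lower were 2 (9.09%) in day 12 muscle, 4 (18.2%) in young adult neurons and 3 (13.6%) in day 12 neurons. Over all genes 4.94%, 9.21% and 5.22% were lower in these groups. Among them was tufm-1, the mitochondrial elongation factor that brings aminoacyl-tRNA to the ribosome, with a mean of 251 CPM in multiple tissues. It was lower in day 12 muscle (log2 fold change -4.73 ± 0.93, edgeR adjusted p = 0.0192) and had no read in young adult neurons (at least 46.3-fold lower, adjusted p = 0.00329) or day 12 neurons (at least 20.9-fold lower, adjusted p = 0.00736). The threonyl-tRNA synthetase gene tars-1 had no read in day 12 muscle (at least 225.7-fold lower, adjusted p = 0.0156).
Of 23 tested genes for mitochondrial protein import and quality control, 0 were called in young adult muscle by edgeR (2 at an unadjusted p under 0.05), 3 (13.04%) were lower in day 12 muscle, 2 (8.70%) in dauer muscle, 1 in larval muscle, 7 (30.4%) in young adult neurons and 4 (17.4%) in day 12 neurons, and 0 were higher in any. In dauer muscle 2.31% of all genes were lower. The mitochondrial chaperonin gene hsp-60 was lower in dauer muscle (-4.64 ± 1.11, adjusted p = 0.0315), day 12 muscle (-4.88 ± 1.13, adjusted p = 0.0258) and young adult neurons (-5.98 ± 1.24, adjusted p = 0.0099). The import receptor gene tomm-20 was lower in dauer (-2.197 ± 0.55, adjusted p = 0.0394) and day 12 muscle (-2.12 ± 0.55, adjusted p = 0.0401).
Of 6 tested genes for maintenance and transcription of the mitochondrial genome, mtss-1, the single-stranded DNA binding protein, was lower in both neuron groups. Of 72 tested cytosolic ribosomal protein genes, 36 were lower in day 12 muscle, 41 in dauer muscle, 68 in young adult neurons and 70 in day 12 neurons against multiple tissues, and 3 were called in young adult muscle (1 higher and 2 lower). In the same 4 comparisons 6, 0, 12 and 6 of the 66 mitochondrial ribosomal genes were lower, and the difference between the lists was not tested.

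Neighbouring acceptor sites of the same gene differed in their share of reads between multiple tissues and muscle. Of the members, 7 genes, mrpl-2, mrpl-14, mrpl-15, mrpl-17, mrpl-51, mrps-34 and mrps-35, had a pair of trans-splice sites 4 to 20 bases apart with at least 20 reads in each of both groups and at least 5% of reads at the minor site. The upstream site of the pair took a smaller share in muscle in all of them and by over 20 percentage points in 5 of 7. Over all genes with such a pair the same shift was seen in 47.2% (116 of 246), and a shift of that size in the other direction in 3.25%, so it was common in the table. These pairs were chosen after values were seen, and no test was made.
In mrpl-17 the upstream site (8 bases before the other) held 73.0% and 71.0% of the pair's reads in multiple tissues. In muscle it held 2.56% in L1, 0 of 1006 reads in L2, 1.22% and 0 in dauer, 3.83% and 11.1% in young adults and 14.9% and 0 on day 12. The highest muscle value, in day 12 replicate 1, had an exact 95% interval of 9.06 to 22.5%, and the 0 in L2 had an exact upper limit of 0.366% (0.298% as 3 counts of the total). All 8 muscle libraries lay below both multiple-tissue libraries. Young adult neurons had 0 of 31 and 0 of 48 reads at this site, with exact upper limits of 11.2% and 7.40% (9.68% and 6.25% as 3 counts of the total).
In mrps-35 the upstream site held 96.4% and 96.5% in multiple tissues, 73.7% in L2, between 32.5% and 42.7% in L1, dauer replicate 1 and young adult muscle, and 0 of 117 reads in dauer replicate 2. In mrpl-2 it held 90.6% and 85.4% in multiple tissues and 0 to 38.9% in the 5 muscle libraries with at least 10 reads of the pair. In mrpl-14 it held 49.4% and 45.3% in multiple tissues, 6.09 to 33.3% in muscle and at most 22.4% in neurons. The groups did not overlap in any of these genes, and dauer replicate 2 had the lowest muscle share in each where it had reads, at times together with other libraries at 0.

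**Figure D5:**
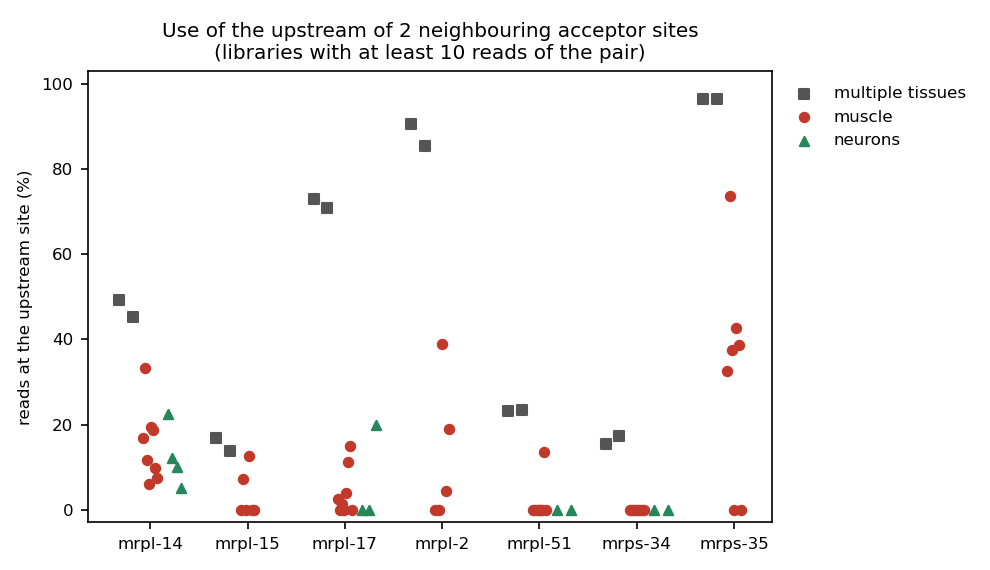
Percentage of reads at the upstream of 2 neighbouring trans-splice acceptor sites in 7 genes, 1 point per library with at least 10 reads of the pair. In every gene the squares of multiple tissues lie above the circles of muscle, for example at 73.0 and 71.0% against at most 14.9% in mrpl-17.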

How the data were processed

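RNA carrying a tagged spliced leader was sequenced in 15 libraries. The authors deposited whole-number counts per gene and per acceptor site; in the files, each member's gene count equals the sum over its trans-splice sites in all 990 gene and library pairs. Trimmomatic, TopHat2 and DESeq were used per the submitters' processing notes, which give no versions or roles here. The genome build is not given in the sources used here; 90.6% of 32276 cis-splice sites fall on exon starts of WBcel235 after 1 base is added on the plus strand, and positions are given on that scale. Each table holds 3 per-sample columns of no listed sample, which were not used.

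Counts of the 14 SL1-tag libraries (8 groups) were fitted together with edgeR 4.0.16 in R 4.3.3 (TMM scaling, default filter on low counts, quasi-likelihood test, residual df 6, prior df 4.17, common biological coefficient of variation 1.09), leaving 8954 genes. Benjamini-Hochberg adjustment ran over all of them at 0.05. Standard errors were derived from the log2 fold change and its F statistic. Larval muscle averages the log2 fold changes of the single L1 and L2 libraries. The SL2-tag library entered no fit. A group without reads gives a fold bound from 3 reads over the group. Intervals are exact 95% intervals. The fit was tested on simulated data. Alternatives were DESeq2 1.42.0 (size factors or Wald test), no filter, only the groups compared, a replicate block and leaving out libraries.

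The members and the gene lists were chosen with earlier results of these data known. Named with values were up to 6 called members with the smallest p in each direction, or the 3 with the smallest p where fewer than 3 were called, the 5 with most reads over all libraries, and the 6 with most SL2-tag reads, and of the other lists up to 3 called genes per comparison. Other genes given as examples, such as mrpl-46, mrps-18C and mrpl-4, were chosen after their values were seen.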

Additional observations from a re-analysis of the deposited data

Results flagged for a closer look

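The SL2-tag muscle library takes no part in the comparisons between groups, and it held reads of 26 of the 66 genes, all of them marked operon by the authors, against 45.3% of all marked genes. It has no replicate and no control library with the same tag.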

How the results depend on the processing

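The number of the 66 genes called changed with the fit. With DESeq2's size factors in place of TMM there was 1 call in day 12 muscle, 1 in larval muscle, 7 in young adult neurons (1 of them higher) and 3 in day 12 neurons against multiple tissues. This scaling shifted the all-gene median (log2) by 0.286, 0.0748, 0.862 and 0.624 in these comparisons. With it 8.44%, 6.4%, 15.1% and 13% of all genes were called in them. DESeq2's Wald test called 13 in young adult, 15 in day 12 (4 of them higher), 10 in dauer and 6 in larval muscle. It called 19 in young adult neurons (3 of them higher), 4 in day 12 neurons, and 5 between day 12 and young adult muscle. Of all genes it called 21.1%, 26.2%, 25.1% and 23.8% in these muscle groups. In young adult neurons the share was 36.2%, in day 12 neurons 31.7%, and between day 12 and young adult muscle 14.6%. Without a filter on low counts there was 1 call in young adult and 1 in dauer muscle and 5 between day 12 and young adult muscle. There were 21 in young adult neurons and 13 in day 12 neurons. Of all genes 8.12%, 9.96%, 4.85%, 18.3% and 14.6% were called in these comparisons. Fits of only the groups compared called 46, 20, 18 and 45 in young adult, day 12, dauer and larval muscle, and 46 and 45 in young adult and day 12 neurons. Of these, 3 in day 12 muscle, 2 in young adult neurons and 1 in day 12 neurons were higher. The shares of all genes called in these fits are not given here, so these counts are no result about the members as such. With dauer replicate 2 and both day 12 muscle libraries left out, an alternative chosen after seeing the data, 24, 16 and 16 were called in young adult, dauer and larval muscle and 45 and 34 in the neuron groups. For that fit the shares of all genes are given above for young adult and dauer muscle and young adult neurons, and not for the other groups. The cause of these changes was not tested.

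Leaving out 1 library at a time gave 0 to 5 calls in day 12, 0 to 10 in dauer and 0 to 2 in larval muscle, 7 to 8 in young adult neurons and 2 to 4 in day 12 neurons against multiple tissues, 0 to 3 between day 12 and young adult muscle and 0 to 5 between dauer and young adult muscle. Shares of all genes called in these fits are not given here, so these counts are not set against a background. For mrps-7 in larval muscle the log2 fold change was -10.76 without L1 and 0.66 without L2. Over all alternatives the named genes' values stayed on the same side of the threshold and of 0 in 225 cases, lost the call in 63, gained it in 26 and turned direction in 1.

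Same-numbered libraries did not deviate together (correlations of -0.0132 to 0.0156 over 8954 genes). Many of these genes had few or no reads in a library, so a pairing was not seen but is not excluded. With the replicate block there were 2 calls in day 12 muscle, 0 in larval muscle, 15 in young adult neurons and 7 in day 12 neurons. Of all genes it called 9.25% in day 12 muscle, 7.78% in larval muscle and 16.8% in young adult neurons. The share for day 12 neurons is not given here, so that count is not set against a background. Depth limits the neuron groups most, and larval muscle rests on 1 library per stage.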
